A study of Homo sapiens with 6 samples.

Results

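The AP-1 transcription factor genes JUN, JUNB, JUND, FOS, FOSB, FOSL1 and FOSL2, and the related genes BATF3 and ATF3, were followed in A375 cells in which SOX10 had been targeted. The members were named by symbol and matched to the Ensembl identifiers of the count table, which gave 9 genes of the 58721 in the table. A375 is an established human melanoma line with a mutant BRAF gene. Transcripts were counted by RNA sequencing in 3 control libraries, from cells carrying a guide RNA against mCherry (a fluorescent protein gene that human cells lack) and labelled wild type, and in 3 libraries from cells carrying a guide RNA against SOX10 and labelled SOX10 knockout. SOX10 is a transcription factor of neural crest, melanocytes and glia. Pool or clone, the cut site within SOX10 and the independence of the cultures are not stated in the labels, so the p-values below reflect variation among these 6 libraries alone, and that variation may be technical.

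AP-1 is a dimer of proteins that share a basic region, which contacts DNA, and a leucine zipper, which joins the partners. JUN proteins pair with each other or with FOS proteins, whereas FOS proteins need a JUN partner; ATF3 and BATF3 are small members of the same superfamily that also pair with JUN proteins and can repress. FOS, FOSB, JUN, JUNB and ATF3 are known as immediate early genes, switched on within minutes by growth factors or stress and then shut off, while FOSL1 is known to build up where ERK signalling is sustained, as in cells with mutant BRAF. AP-1 proteins are also controlled by phosphorylation and by degradation, which counts of RNA do not show. In melanoma, JUN and FOSL1 are known for their association with dedifferentiated states low in SOX10 and MITF.

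The sequences before the transcription starts of 5 members that moved are shown because they hold the classical control sites of this family. They were taken from RefSeq on GRCh38.p14, in which 7 of the 9 members were matched; FOSL1 and BATF3 were not. Each line gives the 250 bases before the start, 5′ to 3′ on the gene's own strand, in lower case, with matches to TGACATCA (the site known from the JUN promoter), to TGACGT (the core of the cyclic AMP response element) and to TATAAA (the TATA box) in capitals. The windows lie at chr1:58784048-58784297, minus strand (JUN), chr1:212565157-212565406, plus strand (the first of the ATF3 starts listed), chr2:28392608-28392857, plus strand (FOSL2), chr14:75278578-75278827, plus strand (FOS) and chr19:45467746-45467995, plus strand (FOSB). The starts are those of RefSeq and differ from the gene positions given below, which are from GENCODE. By the GENCODE positions, the JUN and FOSL2 windows lie inside the gene. The ATF3, FOS and FOSB windows overlap its beginning.
JUN: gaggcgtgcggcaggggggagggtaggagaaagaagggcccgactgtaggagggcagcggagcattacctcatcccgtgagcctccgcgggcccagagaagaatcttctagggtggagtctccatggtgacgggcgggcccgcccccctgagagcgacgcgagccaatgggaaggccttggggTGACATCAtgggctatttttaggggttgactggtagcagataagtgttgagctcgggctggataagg
ATF3: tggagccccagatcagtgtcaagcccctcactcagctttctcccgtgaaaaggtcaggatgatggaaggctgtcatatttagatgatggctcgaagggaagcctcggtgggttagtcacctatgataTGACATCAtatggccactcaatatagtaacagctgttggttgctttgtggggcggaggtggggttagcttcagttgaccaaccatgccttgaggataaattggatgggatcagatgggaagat
FOSL2: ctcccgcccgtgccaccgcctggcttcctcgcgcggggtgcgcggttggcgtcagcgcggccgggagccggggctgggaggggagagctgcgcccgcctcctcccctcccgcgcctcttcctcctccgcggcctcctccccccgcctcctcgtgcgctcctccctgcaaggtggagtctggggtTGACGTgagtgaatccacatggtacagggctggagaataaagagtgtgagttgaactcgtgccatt
FOS: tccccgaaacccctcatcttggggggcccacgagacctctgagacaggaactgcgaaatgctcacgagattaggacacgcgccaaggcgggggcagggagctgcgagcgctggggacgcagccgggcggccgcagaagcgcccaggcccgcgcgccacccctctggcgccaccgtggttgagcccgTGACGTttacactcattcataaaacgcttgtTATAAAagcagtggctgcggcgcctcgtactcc
FOSB: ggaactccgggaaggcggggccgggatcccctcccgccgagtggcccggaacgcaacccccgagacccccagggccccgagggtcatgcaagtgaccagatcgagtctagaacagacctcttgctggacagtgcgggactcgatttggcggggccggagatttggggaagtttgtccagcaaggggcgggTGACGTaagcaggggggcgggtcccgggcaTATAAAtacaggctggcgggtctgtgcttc

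Both strands were searched for each motif. JUN and ATF3, which rose in knockout libraries, shared TGACATCA, at 67 to 60 bases before the start in JUN and at 123 to 116 in the first ATF3 window. Of 35116 windows of the same length, 2.37% held it, a share that is no gauge for JUN, because the site is known from that promoter. FOSL2 also rose, and its window had no match to this site. The other ATF3 window did not hold it, and which ATF3 start these cells use was not tested. The 3 FOS family windows shown shared TGACGT at nearly the same place, from 66 bases before the start in FOSL2, 64 in FOS and 60 in FOSB, against 7.1% of all windows. FOS and FOSB, which fell, also held TATAAA, 33 to 28 and 30 to 25 bases before the start, against 10.7% of windows. The FOSL2 window, of a gene that rose, had no match to it. TATAAA did not go with the direction of change throughout. JUNB, which did not pass the test, held it 31 to 26 bases before the start. The other window of ATF3, which rose, held it at 230 to 225. The AP-1 site TGACTCA (4.2% of windows) had no match in any of the 8 windows of the 7 members. Nor did the serum response element core, the CArG box (1.16%). Bases more than 250 before the start were not searched, so this search cannot show whether such sites lie further upstream. Of the SOX cores searched, ACAAAG (13.7%) matched only in the first ATF3 window and AACAAT (8.98%) in none. The full response element TGACGTCA (1.65%), which contains TGACGT, was found in JUND. Such matches describe letters in these windows and are not shown to be bound.

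Library totals ran from 70075002 to 78148565 counts, so that 3 counts stood at 0.0383 to 0.0417 CPM (a gene's read count relative to its library's size, with TMM scaling); such floors cover counting error only. SOX10 was at 223 to 241 CPM in control and 41.5 to 47.8 CPM in knockout libraries, 19.5% of the control level (quasi-likelihood test of edgeR, p = 1.84e-07 after Benjamini-Hochberg adjustment; exact two-sided permutation p = 0.1, the smallest that 3 against 3 libraries allow). Of 8 markers of the melanocyte lineage, SOX10 included, 2 rose and 3 fell, and their summed level was 319 to 333 CPM in control and 180.0 to 191 CPM in knockout libraries. Most of the control sum was SOX10, the targeted gene, and most of the knockout sum was MITF, so the lower sum does not describe the other markers. S100B fell from 32.9 ± 4.34 to 1.28 ± 0.134 CPM (mean ± SD, n = 3, as below) while MITF rose from 57.5 ± 2.15 to 138 ± 2.29 CPM, and of the pigment cell genes DCT fell from 1.62 ± 0.175 to 0.0657 ± 0.0258 CPM, TYRP1 rose from 0.0731 ± 0.0197 to 0.230 ± 0.0779 CPM (a call lost without control replicate 1 or 3 or knockout replicate 1), MLANA was at most 1.24 CPM, PMEL at most 0.666 CPM, and TYR at or near 0. Fibroblast markers moved with the groups: 6 of 8 rose and 1 fell (87.5% called, against 28% of all tested genes). The calls of COL1A1 and COL1A2 were lost in 3 of 6 fits that left out 1 library, and those of THY1 and PDGFRA in 4 of 6. The summed level of the fibroblast markers was 10.9 to 14.7 CPM in control and 20.5 to 23.4 CPM in knockout libraries, most of it LUM. Keratinocyte and epithelial markers summed to 48.3 to 64.4 and 52.5 to 66.9 CPM, most of it KRT10, which did not pass. Of these 7 markers 4 were tested, and 2 rose. KRT14 fell, from 7.16 ± 0.789 to 0.249 ± 0.0110 CPM, and KRT1 was at 0. Leukocyte markers summed to 10.8 to 14.3 and 1.49 to 2.26 CPM, nearly all of it LYZ, with PTPRC, CD3E and ITGAM near 0. The part of these markers in the results below was not tested. In bulk RNA, a lower level can come from fewer cells with the transcript or from less of it per cell, and these cannot be told apart.

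In SOX10 knockout libraries JUN, FOSL2 and ATF3 rose between 2.54-fold and 2.94-fold, while FOS fell 3.28-fold and FOSB 2.19-fold. BATF3 rose 1.61-fold and FOSL1, the most abundant member, 1.14-fold. JUNB and JUND did not pass the test. All 9 members passed the filter on low counts, and 7 passed the edgeR test at an adjusted p of 0.05, 5 of them higher and 2 lower. Over all 19263 tested genes 28% passed, 14% higher and 14% lower. Control and knockout libraries did not overlap in 8 of the 9 members, all but JUNB, against 41.6% of all tested genes. Of the 9 members, 5 passed with a difference of at least 2-fold, against 10.8% of all tested genes. The median log2 fold change was 0.20 over the members and -0.02 over all tested genes. The number of members called lay between 6 and 8 in 13 of 14 alternative fits, and was 3 when a change beyond 2-fold had to be shown.

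**Figure D1:**
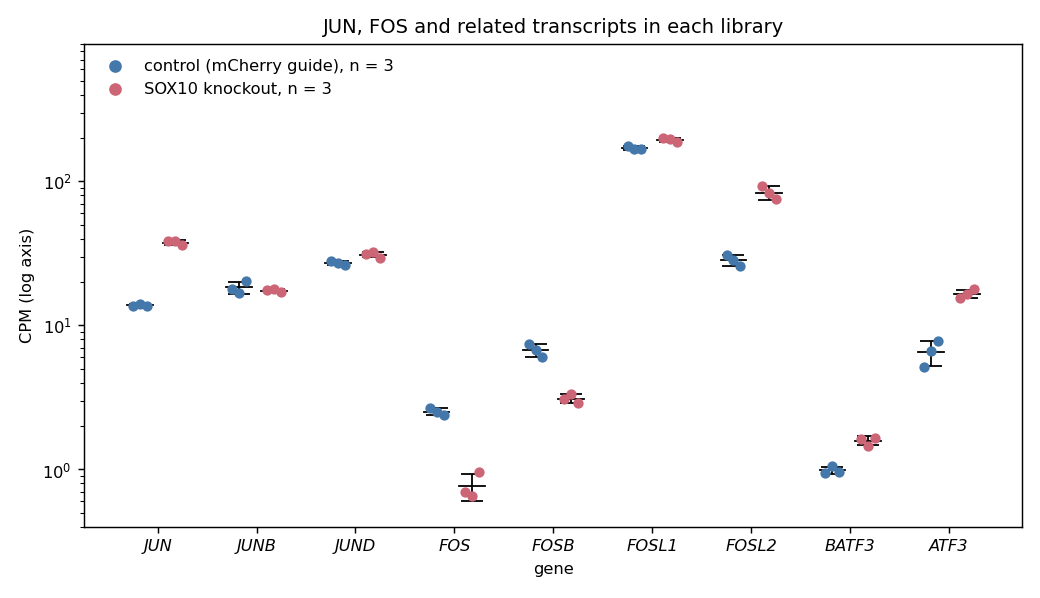
CPM (log axis) of the 9 genes in each library, blue for the 3 control and red for the 3 SOX10 knockout libraries, with black bars for the mean and SD. JUN, FOSL2 and ATF3 stand higher in every knockout library (JUN 35.9 to 38.5 against 13.6 to 14.1 CPM), FOS and FOSB lower, and JUNB overlaps.

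Among the JUN genes, JUN moved and its 2 relatives changed little or not at all. JUN (ENSG00000177606; GRCh38 chromosome 1, 58780788 to 58784327, minus strand, a single exon) encodes the founding member of the family, which can act without a FOS partner. It stood at 13.6, 14.1 and 13.6 CPM in the control libraries and at 38.4, 38.5 and 35.9 CPM in the knockout libraries. The knockout libraries lay close together and far above the controls. The increase was 2.73-fold (log2 fold change 1.45, standard error 0.06, edgeR adjusted p = 8.22e-07). It rested on 980 to 3015 counts per library and passed in 14 of 14 alternative fits, with log2 fold changes from 1.44 to 1.49.

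JUNB (ENSG00000171223; chromosome 19, 12791496 to 12793315, plus strand), whose protein is a weaker activator that can oppose JUN, stood at 18.03, 16.7 and 20.3 CPM in control and 17.5, 17.9 and 17.05 CPM in knockout libraries. The groups overlapped, and the log2 fold change of -0.07 (standard error 0.08) did not pass (edgeR adjusted p = 0.605). Without control replicate 3, the highest library, it was 0.01. JUNB shares 259 bases of exon with HOOK2 on the opposite strand, and no source used here gives the strandedness of the counting. HOOK2 stood at 2.89 and 3.09 CPM in the groups. JUND (ENSG00000130522; chromosome 19, 18279760 to 18281622, minus strand) encodes the JUN protein known for steady expression in resting cells. It stood at 27.95, 27.1 and 26.3 CPM in control and 31.4, 32.2 and 29.6 CPM in knockout libraries. All knockout libraries lay above the controls, by 0.20 on the log2 scale (standard error 0.06), and the test was just missed (edgeR adjusted p = 0.0507). JUND passed in 4 of 14 alternatives, among them scaling by DESeq2 size factors (adjusted p = 0.0471) and by total counts (adjusted p = 0.0375).

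The FOS family split into 2 genes that fell and 2 that rose. FOS (ENSG00000170345; chromosome 14, 75278774 to 75282230, plus strand), the prototype immediate early gene, stood at 2.65, 2.52 and 2.37 CPM in control and 0.695, 0.651 and 0.956 CPM in knockout libraries. Each knockout library was below every control library, and knockout replicate 3 was the highest of its group. The decrease was 3.28-fold (log2 fold change -1.71, standard error 0.17, edgeR adjusted p = 1.22e-04), on 171 to 191 counts per control and 50 to 75 counts per knockout library. Leaving out 1 library at a time, FOS fell by 1.59 to 1.90 on the log2 scale, most without knockout replicate 3. FOSB (ENSG00000125740; chromosome 19, 45467995 to 45475179, plus strand), the closest relative of FOS in its induction, stood at 7.48, 6.80 and 6.06 CPM in control and 3.09, 3.33 and 2.88 CPM in knockout libraries. These groups did not overlap either, and the decrease was 2.19-fold (log2 fold change -1.13, standard error 0.11, edgeR adjusted p = 1.07e-04).

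FOSL2 (ENSG00000075426; chromosome 2, 28392448 to 28417312, plus strand), which encodes FRA2, showed the largest increase of the members. It stood at 30.7, 28.7 and 25.97 CPM in control and 92.95, 82.97 and 75.03 CPM in knockout libraries. The lowest knockout library was more than 2-fold above the highest control, and the increase was 2.94-fold (log2 fold change 1.56, standard error 0.10, edgeR adjusted p = 6.29e-06). FOSL2-AS1, an antisense RNA gene inside the same locus that shares no exon bases with FOSL2, stood at 0.0834, 0 and 0 CPM in control and 0.222, 0.268 and 0.191 CPM in knockout libraries and also rose (edgeR adjusted p = 0.0262); the call was lost without control replicate 2 or any 1 knockout replicate (up to 0.0901).

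FOSL1 (ENSG00000175592; chromosome 11, 65892049 to 65900573, minus strand), which encodes FRA1 and is a known readout of ERK activity, was already abundant. It stood at 176, 167 and 168 CPM in control and 200.4, 196 and 187 CPM in knockout libraries. The groups did not overlap, but the difference was small, 1.14-fold (log2 fold change 0.19, standard error 0.06, edgeR adjusted p = 0.0383). The call was lost without control replicate 1 (adjusted p = 0.0506), 2 (0.171) or 3 (0.0634), without knockout replicate 1 (0.0991) or 2 (0.134), and without a filter on low counts (0.0786). It was also lost when a change beyond 2-fold had to be shown. It was kept without knockout replicate 3 (edgeR adjusted p = 0.0487) and with a replicate block (3.57e-06), a pairing that the labels do not state. Depth was not limiting for this gene, with 12138 to 15329 counts per library.

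ATF3 and BATF3, neighbours 65640 bases apart on chromosome 1 with no tested gene between them, both rose. ATF3 (ENSG00000162772; 212565334 to 212620777, plus strand), a stress-induced factor, stood at 5.18, 6.63 and 7.76 CPM in control and 15.5, 16.5 and 17.8 CPM in knockout libraries. Its control libraries were, in proportion to their mean, the most spread control libraries of the 9 genes, yet the lowest knockout library was about 2-fold above the highest control, and the increase was 2.54-fold (log2 fold change 1.35, standard error 0.14, edgeR adjusted p = 1.32e-04). BATF3 (ENSG00000123685; 212686418 to 212699985, minus strand), known above all from dendritic cells, was near 1 CPM throughout. It stood at 0.945, 1.05 and 0.957 CPM in control and 1.64, 1.46 and 1.66 CPM in knockout libraries, which did not overlap. The increase was 1.61-fold (log2 fold change 0.68, standard error 0.15, edgeR adjusted p = 0.00811), on 68 to 130 counts per library.

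Levels of different genes were compared as CPM per kilobase of exon, using the union of the exons annotated by GENCODE release 29. In control libraries FOSL1 led at 90.4 ± 2.40 CPM per kilobase, followed by JUND at 14.6 ± 0.451 and JUNB at 10.1 ± 1.01. FOSL2 (3.97 ± 0.331) and JUN (3.89 ± 0.0789) overlapped between libraries, as did ATF3 (1.62 ± 0.320) and FOSB (1.22 ± 0.128), and FOS (0.777 ± 0.0439) and BATF3 (0.363 ± 0.0215) came last. In knockout libraries FOSL1 (103 ± 3.50) and JUND (16.7 ± 0.715) still led, but FOSL2 (11.7 ± 1.25) and JUN (10.6 ± 0.407), again overlapping each other, now stood above JUNB (9.60 ± 0.222). FOS (0.237 ± 0.0510) was the lowest, below FOSB (0.558 ± 0.0407) and BATF3 (0.584 ± 0.0412), which overlapped. The ratio of JUN to JUNB per kilobase was 0.389, 0.434 and 0.345 in control and 1.13, 1.11 and 1.08 in knockout libraries, and that of FOSL2 to FOSL1 was 0.0461, 0.0451 and 0.0407 against 0.122, 0.112 and 0.106. FOSL2 exceeded FOS 4.96-fold to 5.23-fold per kilobase in control libraries and 35.5-fold to 60.5-fold in knockout libraries.

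**Figure D2:**
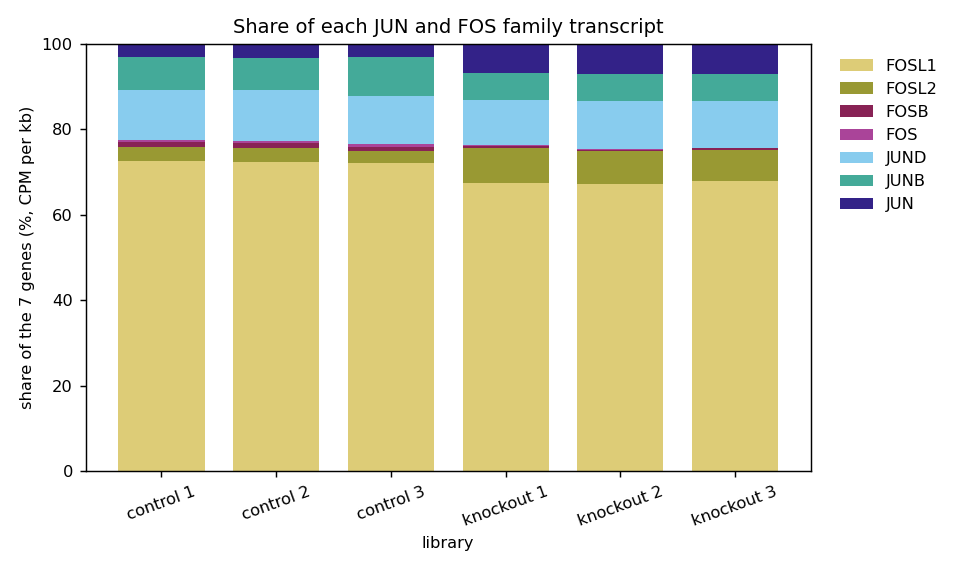
Share (%) of each of the 7 JUN and FOS family genes in their summed CPM per kilobase, 1 bar per library. FOSL1 makes up 72.1% to 72.6% of the control and 67.3% to 68.01% of the knockout bars, and the JUN and FOSL2 blocks are taller in every knockout bar.

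Seen as shares of the summed JUN and FOS family transcripts per kilobase, the mixture shifted within the families more than between them. JUN made up 3.12 ± 0.127% of the sum in control and 6.97 ± 0.0843% in knockout libraries, and JUNB 8.08 ± 0.825% and 6.30 ± 0.156%. FOSL2 went from 3.18 ± 0.218% to 7.65 ± 0.549% and FOSL1 from 72.4 ± 0.258% to 67.6 ± 0.355%. FOS and FOSB together held 1.47% to 1.69% in control and 0.489% to 0.558% in knockout libraries. The JUN genes together held 22.4% to 23.5% in control and 23.7% to 24.6% in knockout libraries, and FOSL1 with FOSL2 held 75.5 ± 0.476% and 75.3 ± 0.465%, with overlapping libraries. The sum itself was 122 to 128 CPM per kilobase in control and 146 to 157 in knockout libraries. These shares describe the members and were not tested. They depend on the exon lengths used: on plain CPM, FOSL2 held 10.6 ± 0.657% and 22.7 ± 1.36%, FOSL1 63.7 ± 0.236% and 52.9 ± 0.803%, and the JUN genes together 21.6% to 22.9% and 22.7% to 23.8%, overlapping.

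Other bZIP genes whose proteins pair with AP-1 members or bind related sites changed in both directions. Of 27 tested, 6 rose and 4 fell (37% called, against 28% of all tested genes), with a median log2 fold change of -0.03; BATF, the relative of BATF3 that lies 240194 bases from FOS, was at or near 0. CREB5, a partner of JUN, rose from 2.54 ± 0.231 to 6.88 ± 0.608 CPM (log2 fold change 1.44, edgeR adjusted p = 2.38e-05) and NFIL3, a repressor, from 10.4 ± 0.633 to 15.6 ± 0.287 CPM. MAF, which encodes a large MAF factor, fell from 30.1 ± 1.87 to 3.01 ± 0.293 CPM (log2 fold change -3.32, edgeR adjusted p = 1.21e-07), BACH2, a repressor at MAF-type sites, from 1.93 ± 0.540 to 0.294 ± 0.0561 CPM and MAFF, a small MAF factor, from 15.8 ± 0.360 to 9.94 ± 0.745 CPM. JDP2, a repressor of AP-1 that lies 145485 bases from FOS, was at 2.10 ± 0.402 and 1.86 ± 0.0781 CPM and did not pass (adjusted p = 0.470).

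Genes of the JNK pathway, which phosphorylates JUN, changed about as often as genes at large: of 27 tested, 4 rose and 3 fell (25.9% called, against 28%). The kinases themselves did not pass the test, MAPK8 (JNK1) at 37.7 ± 2.08 and 36.9 ± 2.69 CPM and MAPK9 (JNK2) at 63.6 ± 3.00 and 63.2 ± 2.95 CPM. MAP3K20, an upstream stress kinase also called ZAK, rose from 49.9 ± 0.628 to 72.6 ± 0.651 CPM and MAP3K1 from 42.5 ± 0.533 to 49.3 ± 2.30 CPM, and DUSP8, a phosphatase, rose from the floor, 0.0272 ± 0.0231, to 0.268 ± 0.0381 CPM. DUSP10, a phosphatase that inactivates JNK and p38, fell from 31.8 ± 1.79 to 14.8 ± 0.257 CPM (log2 fold change -1.11, edgeR adjusted p = 5.44e-06), DUSP16, another JNK phosphatase, from 12.7 ± 1.33 to 9.26 ± 1.57 CPM and the kinase MAP3K10 from 4.66 ± 0.214 to 3.18 ± 0.255 CPM. Without control replicate 2, and likewise without knockout replicate 2, 4 genes of this list passed, 2 in each direction. The MAP3K1 call was lost without control replicate 1 or 2 or knockout replicate 1 or 2 (edgeR adjusted p up to 0.128), and the DUSP16 call without control replicate 1 or 2 or knockout replicate 2 or 3 (up to 0.141). Of 12 tested genes of JUN and FOS protein turnover, TRIB3 rose and TRIB2 and TRIB1 fell (25% called, against 28%); TRIB2 went from 85.01 ± 4.22 to 58.9 ± 3.42 CPM. The TRIB3 call, from 38.9 ± 1.64 to 45.0 ± 1.13 CPM, was lost without control replicate 1 or 2 or knockout replicate 2 or 3 (edgeR adjusted p up to 0.133). COP1, the ubiquitin ligase of JUN that works with tribbles proteins, was at 75.01 ± 5.97 and 75.2 ± 2.57 CPM (adjusted p = 0.978).

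Most of the changed factors and kinases that act on the FOS and JUN promoters were lower. Of 17 tested, 7 fell and 1 rose (47.1% called, against 28% of all tested genes), with a median log2 fold change of -0.17. RPS6KA3 (RSK2), a kinase below ERK that phosphorylates CREB and FOS, fell from 318 ± 22.3 to 193 ± 9.94 CPM (log2 fold change -0.72, edgeR adjusted p = 1.22e-04) and RPS6KA1 (RSK1) from 71.6 ± 3.97 to 45.5 ± 1.16 CPM. MEF2C, a factor of the JUN promoter, fell from 11.5 ± 1.12 to 4.92 ± 0.411 CPM (log2 fold change -1.22). RPS6KA4 (MSK2) rose, from 23.1 ± 0.744 to 28.3 ± 1.94 CPM, a call that was lost without control replicate 2 or knockout replicate 2 (edgeR adjusted p up to 0.0795). SRF, which with ELK proteins drives FOS and FOSB through the serum response element, fell from 34.9 ± 1.60 to 29.6 ± 1.48 CPM (adjusted p = 0.0298); this call was lost in 5 of 6 fits that left out 1 library, all but that without control replicate 3 (up to 0.114). Of its partners ELK3 fell from 141 ± 3.63 to 114 ± 4.63 CPM, whereas ELK1 (adjusted p = 0.762) and ELK4 (adjusted p = 0.0582) did not pass.

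Other immediate early genes also changed in both directions. Of 35 tested, 15 rose and 10 fell (71.4% called, against 28% of all tested genes), with a median log2 fold change of 0.16. NR4A1, a nuclear receptor gene induced together with FOS, fell from 24.6 ± 1.97 to 3.26 ± 0.116 CPM (log2 fold change -2.91, edgeR adjusted p = 1.48e-07), EGR3, an early growth response factor, from 11.01 ± 1.66 to 0.826 ± 0.232 CPM (log2 fold change -3.73) and NR4A2 from 7.04 ± 0.766 to 1.90 ± 0.269 CPM. EGR1 was at 7.26, 6.69 and 5.99 CPM in control and 5.96, 3.93 and 4.32 CPM in knockout libraries and just missed the threshold (adjusted p = 0.0508). GEM, a small GTPase gene, rose from 5.79 ± 0.696 to 27.3 ± 1.45 CPM (log2 fold change 2.23, edgeR adjusted p = 8.44e-07), HBEGF, an EGF receptor ligand that is also on the list of AP-1 targets below, from 9.001 ± 0.0668 to 22.9 ± 0.818 CPM and CCN1, a matricellular protein gene, from 104 ± 2.12 to 208 ± 8.59 CPM. MYC, at 17.4 ± 0.708 and 18.6 ± 0.605 CPM, did not pass (adjusted p = 0.338).

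**Figure D3:**
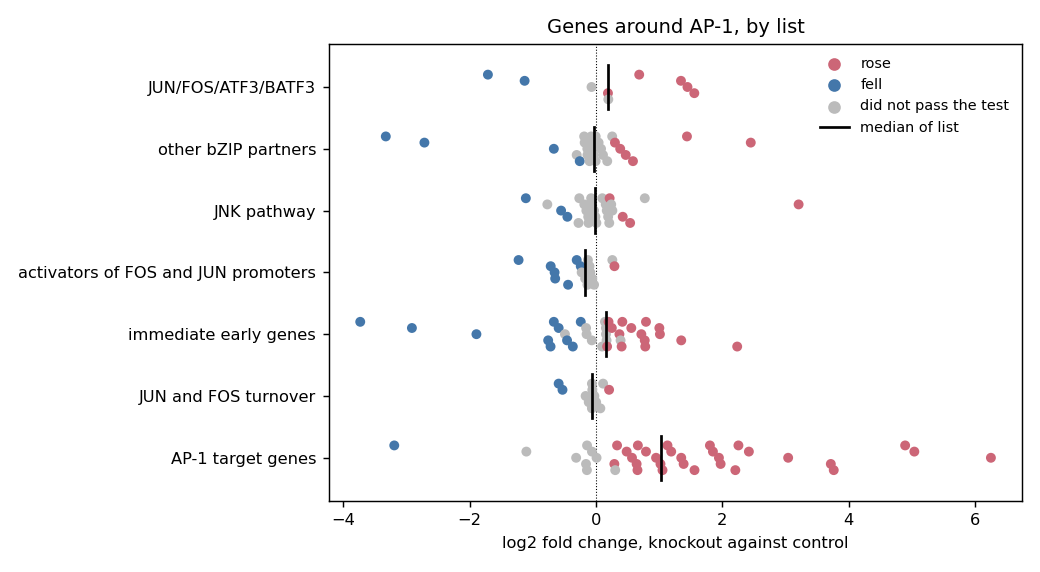
Log2 fold change of every tested gene of 7 lists (1 point per gene, red where it rose, blue where it fell, grey where it did not pass; black bar, the list's median). The AP-1 target genes have their median at 1.04, the other lists between -0.17 and 0.20.

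Most known AP-1 target genes were higher in knockout libraries. The test called 29 of 38 higher and 1 lower (78.9% called, against 28% of all tested genes). Of the 38, 20 were called higher and 1 lower by at least 2-fold, against 10.8% of all tested genes in either direction. The median log2 fold change of the list was 1.04. Like the other lists, this one was chosen with earlier results of these data known, and it was not tested as a set. A further 3 genes, of keratinocyte differentiation, were at or near 0. The stromelysin gene MMP3, whose promoter holds a classical AP-1 site, stood at 1.04, 0.849 and 0.749 CPM in control and 27.8, 28.8 and 30.2 CPM in knockout libraries (log2 fold change 5.04, standard error 0.12, edgeR adjusted p = 4.50e-08). The collagenase gene MMP1 stood at 3.74, 3.94 and 4.85 CPM in control and 111, 123 and 138 CPM in knockout libraries (log2 fold change 4.89). In each pair of groups the knockout libraries were more than 20-fold above every control. MMP10, MMP13 and MMP9 rose as well, MMP10 from 0.116 ± 0.104 to 8.84 ± 0.512 CPM. Fewer than 3 counts were held by control replicate 2 of MMP10 (0.0135 CPM) and control replicates 2 and 3 of MMP9 (0.0270 and 0.0139 CPM). The MMP9 call was lost without control replicate 2 or 3 or knockout replicate 2 (edgeR adjusted p up to 0.107). MMP3 and MMP10 are close paralogs that may share reads.

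Of the growth factor ligands on the target list, AREG rose from 6.00 ± 0.219 to 28.6 ± 3.03 CPM (log2 fold change 2.25, edgeR adjusted p = 6.57e-07), together with HBEGF and EREG. The cytokine genes IL11 (11.8 ± 1.85 to 45.4 ± 1.12 CPM) and IL6 (0.0645 ± 0.0642 to 0.892 ± 0.0463 CPM) rose, as did the plasminogen system genes PLAU (0.179 ± 0.0912 to 1.48 ± 0.517 CPM) and PLAUR (33.7 ± 1.46 to 42.5 ± 0.172 CPM). IL6 held fewer than 3 counts in control replicates 1 and 2, at 0.0278 and 0.0270 CPM. IL1A, an inflammatory cytokine gene, was the 1 target called lower, falling from 3.68 ± 0.768 to 0.401 ± 0.0370 CPM (log2 fold change -3.19, edgeR adjusted p = 6.62e-06). CCND1, VEGFA and TIMP1 were among the 8 that did not pass; VEGFA was at 33.3 ± 1.96 and 33.5 ± 2.10 CPM (adjusted p = 0.942). Many of these genes also answer to other factors, and the part of AP-1 in their change was not tested.

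**Figure D4:**
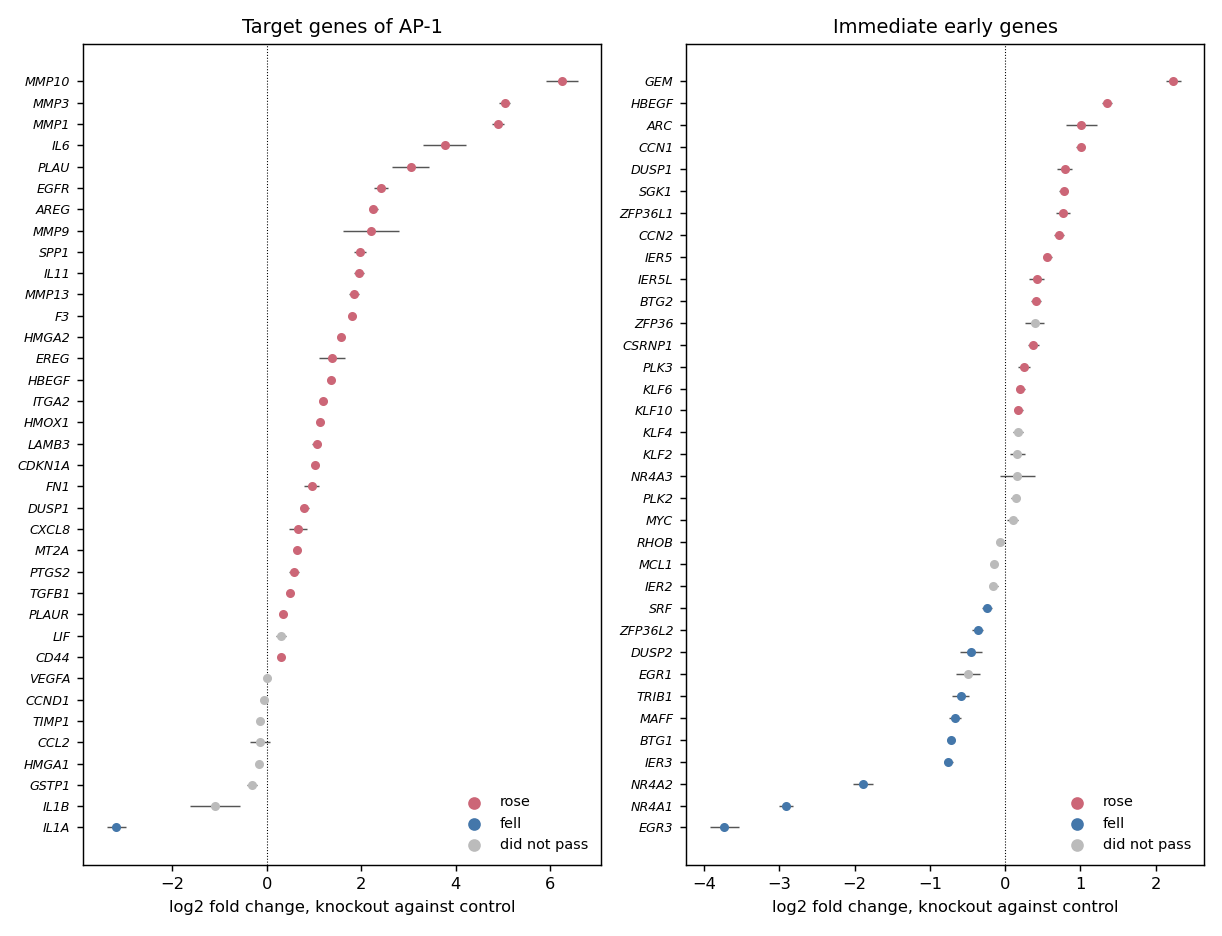
Log2 fold change with its standard error for the tested AP-1 target genes reported here (left) and the tested immediate early genes (right), red where it rose, blue where it fell and grey where it did not pass. The targets run from IL1A at -3.19 to MMP10 at 6.25, and the early genes from EGR3 at -3.73 to GEM at 2.23.

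The genes with the pattern most like each member were found among about 10122 protein-coding genes averaging 5 CPM or more, by the distance between log2 CPM values centred on each gene's mean over the 6 libraries. Nearest to JUN were EEF1A2 (distance 0.06), at 13.4 ± 0.191 and 37.8 ± 1.75 CPM, and GDA (0.07). FOSL2 lay nearest to ABLIM1 (0.08), at 26.02 ± 2.47 and 76.1 ± 6.39 CPM, and to HMGA2 (0.11), itself on the list of AP-1 targets. For FOS the nearest were LRAT (0.26), at 22.4 ± 0.568 and 6.57 ± 0.628 CPM, and PELI1 (0.29), and for FOSB DBNDD1 (0.13) and NOL4L (0.14). ATF3 was nearest to QPCT (0.19) and MGST1 (0.22), BATF3 to APOBEC3F (0.16), and FOSL1 to KIFBP (0.02) and CTSA (0.04). Near to JUND was SOCS5 (0.04), and nearest to JUNB were SMARCE1 (0.05) and TIMM23B (0.08). With 2 groups of 3 libraries, nearness mainly means a like difference between the groups.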

How the data were processed

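RNA was sequenced from 3 control and 3 SOX10 knockout libraries of A375 cells. The authors deposited whole-number read counts per Ensembl gene; HISAT2, HTSeq and hg38 are named per the submitters' processing notes. Annotation release, strand setting and tool versions were not given in the sources used here. No row lacked a gene. Identifiers were matched to GENCODE release 29 (58676 of 58721) for symbols, positions and exon lengths.

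Genes were filtered with filterByExpr, scaled with TMM factors and tested with edgeR 4.0.16 (quasi-likelihood F test, R 4.3.3, no covariates, all 6 libraries), with Benjamini-Hochberg adjustment over all 19263 tested genes and a threshold of 0.05. "Rose" and "fell" mean past this threshold. The script was tested on simulated counts. Alternatives were DESeq2 1.42.0, limma-voom (limma 3.58.1), other scalings and filters, glmTreat against a 2-fold change, a replicate block and leaving out each library. A per-kilobase level divides CPM by the union of annotated exons. Distances use log2 CPM with a prior count of 2. Promoter windows are RefSeq's.

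The members and lists were chosen with earlier results of these data known. Named were all members and, per list, up to 3 rising and 3 falling genes of smallest p; other names (such as MAPK8, COP1, EGR1, MYC, IL6 and VEGFA) were chosen after their values were seen. Some genes of the lists are counted in the totals but are not reported here by name.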

Additional observations from a re-analysis of the deposited data

How the results depend on the processing

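Of the 9 log2 fold changes, 8 kept their direction in all 14 alternatives; JUNB, not called in any, ranged from -0.13 to 0.0089 on leaving out 1 library and turned above 0 without control replicate 3. Against a 2-fold change (glmTreat), 1232 genes were called in place of 5396, 3 members in place of 7, 15 AP-1 targets in place of 30, 5 immediate early genes in place of 25, 4 other bZIP genes in place of 10 and 1 JNK pathway gene in place of 7. No turnover gene and no promoter activator passed glmTreat (0 of 12 and 0 of 17; at an unadjusted p under 0.05, 0 and 1; DESeq2 called 3 and 9, limma-voom 3 and 8). This test asks for a larger change by construction. Leaving out 1 library at a time gave 6 to 7 members, 4 to 7 JNK pathway genes, 2 to 3 turnover genes, 6 to 9 promoter activators, 19 to 23 immediate early genes and 27 to 31 targets. Same-numbered libraries correlated at 0.302, -0.00438 and 0.314 in their deviations from the group means, so not every pair passed 0.1 and the libraries were not treated as paired; 4 of 6 libraries correlated best with their own number, and whether a number marks a shared day or culture is not stated. With a replicate block, 9813 genes, 20 JNK pathway genes, 5 turnover genes, 15 promoter activators, 17 other bZIP genes, 35 AP-1 targets (5 lower, in place of 1), 31 immediate early genes and 8 members (JUND added) were called. Under total-count scaling 58.5% of calls were higher, against 49.9%. FOS and BATF3, at 50 to 191 counts per library, carry the most counting error of the members.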

Other observations

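Genes beside the members did not follow them in a common way. JUND, which did not pass the test, lies 5250 bases from IQCN, which rose from 0.160 ± 0.0666 to 1.61 ± 0.567 CPM (n = 3; log2 fold change 3.31, edgeR adjusted p = 2.34e-04). FOSL1 lies 413 bases from CCDC85B, which rose from 35.3 ± 1.31 to 47.0 ± 3.04 CPM (log2 fold change 0.41, edgeR adjusted p = 0.00246), and 16234 bases from C11orf68, which rose from 19.0 ± 0.515 to 28.9 ± 0.0448 CPM (log2 fold change 0.61). Both had larger log2 fold changes than FOSL1 itself; these differences were not tested.

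Next to FOSB, which fell, RTN2 at 10109 bases fell from 2.46 ± 0.341 to 1.31 ± 0.0741 CPM, and ERCC1, which overlaps FOSB without sharing exon bases, from 65.5 ± 2.78 to 48.9 ± 1.37 CPM. POLR1G, 57228 bases away on the other side, was at 15.7 ± 1.11 and 16.1 ± 0.702 CPM and did not pass (edgeR adjusted p = 0.774). The nearest tested neighbours of FOS (TMED10 and JDP2) and the nearest ones outside FOSL2 (BABAM2 and PLB1) did not pass. MYSM1, 80695 bases from JUN, fell from 65.9 ± 2.95 to 55.1 ± 2.12 CPM (edgeR adjusted p = 0.0163) while JUN rose; the MYSM1 call was lost without control replicate 1 or knockout replicate 2 or 3 (up to 0.0989).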
